A study of Mus musculus with 12 samples.

Results

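The choroid plexus markers described here are 10 genes, Ttr, Kl, Clic6, Folr1, Kcnj13, Aqp1, Otx2, Sostdc1, Slc4a5 and F5, out of 18193 genes measured on Affymetrix mouse expression arrays. They were chosen by name as genes of the choroid plexus, with no threshold on a measured value. Every probe set that the array's annotation pairs with a member alone was read, 17 in all, and the brightest probe set stands for the gene. The RNA came from the striatum, a deep forebrain nucleus whose projection neurons degenerate in Huntington's disease and which borders the lateral ventricle. Total RNA from 12 C57BL/6 mice was hybridised to 12 arrays, 1 per mouse, in 4 groups of 3. Wild-type mice and HdhQ92/Q92 mice were compared, at about 3 months (100 to 103 days) and at about 18 months (567 to 604 days). In HdhQ92/Q92 mice (Q92 below) both copies of the endogenous huntingtin gene carry a stretch of 92 CAG repeats with part of the human gene's first exon, so that the altered gene is driven by its own mouse promoter in all cells. All 4 groups held both sexes, with 1 female and 2 males in the wild-type 3 month group and 2 females and 1 male in each of the others. Mice are named by genotype, age and animal number, as in wt_18m_12. Values are log2 signals, on which a difference of 1 is a 2-fold difference in signal, and they carry no call of presence or absence.

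The choroid plexus is a frond of epithelium and vessels that hangs in the ventricles of the brain. Its epithelial cells secrete cerebrospinal fluid by moving ions, bicarbonate and water across their apical membrane, and they release proteins such as transthyretin into that fluid. The transcription factor OTX2 is needed for the formation and upkeep of this epithelium. The tissue lies next to the striatum but is no part of it, and striatal neurons and glia are not known as a main source of these transcripts. In bulk RNA, fewer cells of a type and less RNA per cell cannot be told apart.

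Promoter sequences are given for 4 members to show the start regions of genes whose signals moved together from mouse to mouse. They were taken from RefSeq on GRCm38.p6, each from 250 bases before to 50 bases after the annotated start. Windows of 6 of the 10 members were read (9 windows, 4 of them of Otx2). Windows on 1 chromosome were left out of the member search, and none was read for Ttr. Sequences read 5′ to 3′ along the strand of the gene, and the capitals mark matches to a motif on either strand. TAATCC is the core bound by OTX-type homeodomain factors. TATAAA is an element found near the start of many genes. GGGCGG is the element bound by SP1. No matches overlapped. Kl is at chr5:150952357-150952656 (plus strand), Kcnj13 at chr1:87394680-87394979 (minus strand), Otx2 at chr14:48665060-48665359 (minus strand) and Slc4a5 at chr6:83237125-83237424 (plus strand).
Kl: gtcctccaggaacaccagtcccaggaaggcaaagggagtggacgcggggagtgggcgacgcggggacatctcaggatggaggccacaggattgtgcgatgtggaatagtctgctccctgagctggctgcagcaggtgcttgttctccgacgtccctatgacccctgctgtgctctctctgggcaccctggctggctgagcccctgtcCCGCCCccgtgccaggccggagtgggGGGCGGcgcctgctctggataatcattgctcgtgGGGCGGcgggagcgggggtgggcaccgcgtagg
Kcnj13: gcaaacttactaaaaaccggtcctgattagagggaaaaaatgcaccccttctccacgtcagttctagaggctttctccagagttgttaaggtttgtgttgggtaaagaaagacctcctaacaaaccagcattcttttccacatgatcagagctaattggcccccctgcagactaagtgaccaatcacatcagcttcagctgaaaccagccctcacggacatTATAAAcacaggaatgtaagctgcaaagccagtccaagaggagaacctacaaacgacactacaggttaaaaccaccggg
Otx2: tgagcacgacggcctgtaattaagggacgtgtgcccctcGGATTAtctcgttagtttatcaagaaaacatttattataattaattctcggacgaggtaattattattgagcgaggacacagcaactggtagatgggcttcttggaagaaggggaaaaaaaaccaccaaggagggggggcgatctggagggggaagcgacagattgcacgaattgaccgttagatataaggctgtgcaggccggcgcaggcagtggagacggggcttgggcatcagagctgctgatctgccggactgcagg
Slc4a5: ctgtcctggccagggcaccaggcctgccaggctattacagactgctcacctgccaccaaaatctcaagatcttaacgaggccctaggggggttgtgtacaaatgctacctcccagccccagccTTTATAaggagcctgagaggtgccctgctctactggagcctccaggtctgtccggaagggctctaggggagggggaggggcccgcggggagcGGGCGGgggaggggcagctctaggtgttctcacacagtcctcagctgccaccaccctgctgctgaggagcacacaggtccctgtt
A TAATCC match was found in 1 of the 6 members, in the Otx2 window shown, where it lies on the opposite strand and begins 211 bases before the start. TATAAA was found in 3 members, among them Kcnj13, where it begins 29 bases before the start. GGGCGG was found in 4 members, with 3 matches in the Kl window. Over all 32851 RefSeq promoter windows of the same length, 7.06% held TAATCC, 13.6% held TATAAA and 35.7% held GGGCGG. These shares are per window, whereas a member was counted if any of its windows held the motif. Otx2 had several windows, so the counts and the shares are not directly comparable. These matches are descriptions of letters and no binding was measured.

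In all 10 genes, the same 2 mice carried the highest signals, one wild type and one Q92. Mouse wt_18m_12, a male of 596 days, was highest for 4 members, and mouse Q92_3m_439, a female of 103 days, was highest for the other 6. The remaining 10 mice lay below both for every member. Over the median of those 10 mice, the members were 2.11-fold (Clic6) to 9.54-fold (Kl) higher in wt_18m_12 and 3.01-fold (Aqp1) to 14.0-fold (Kcnj13) higher in Q92_3m_439. Because 1 of these mice sits in the wild-type 18 month group and the other in the Q92 3 month group, each enters 3 of the 5 comparisons below, and all comparisons are given with and without them. The third-highest mouse was Q92_18m_25 in 8 of 10 members. The exceptions were Aqp1, where wt_3m_467 came next after the high pair, and F5, where Q92_18m_66 did.

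**Figure D1:**
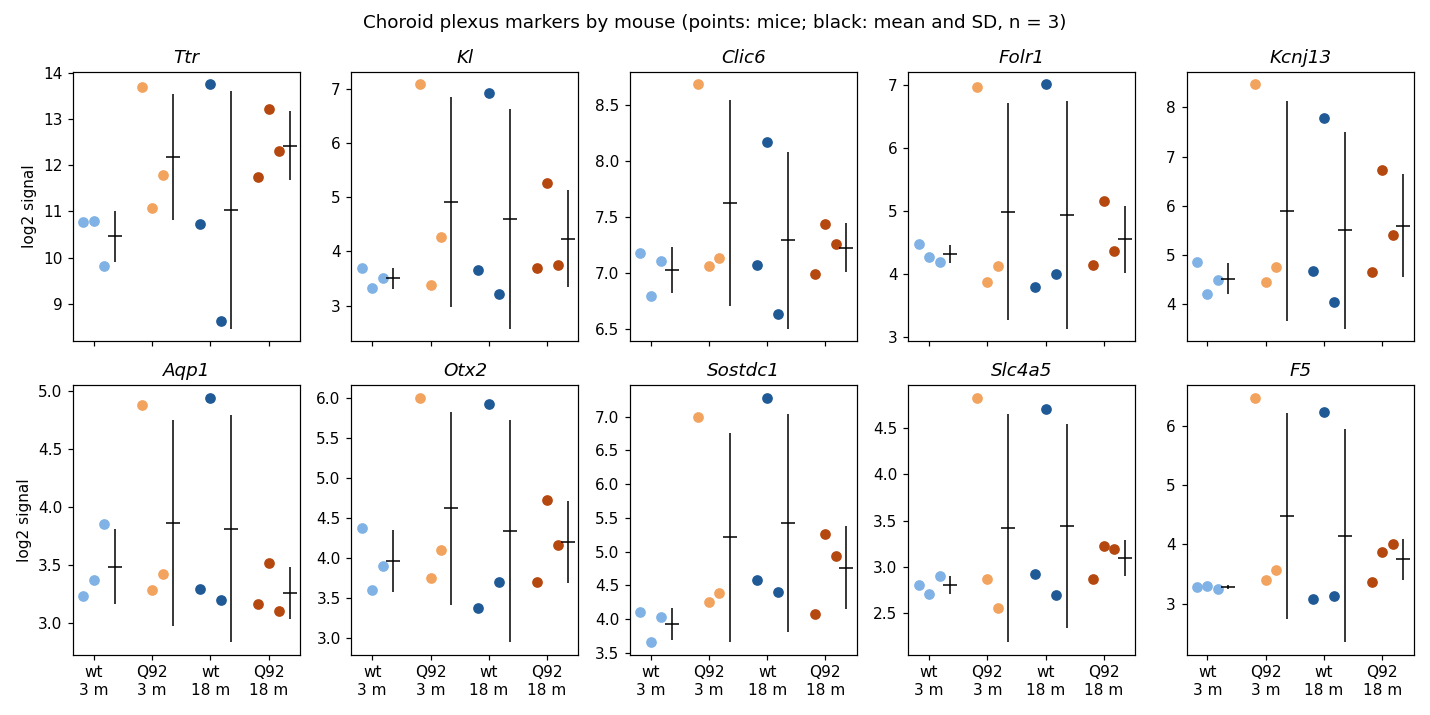
Signal of each choroid plexus marker by mouse. Points are single mice (log2 signal, vertical axis, scaled to each gene) in the groups wild type (wt) and Q92 at 3 and 18 months, and the black bars give the group mean and SD (n = 3). In each panel 1 point of the Q92 3 month group (Q92_3m_439) and 1 of the wild-type 18 month group (wt_18m_12) stand above the other 10 mice, and the SD bars of those groups are long for that reason.

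Transthyretin, encoded by Ttr, is the carrier of thyroid hormone and of retinol-binding protein that the choroid plexus secretes in quantity. Its log2 signal was 10.76, 10.79 and 9.82 in the wild-type mice wt_3m_436, wt_3m_438 and wt_3m_467 and 13.70, 11.07 and 11.78 in Q92_3m_439, Q92_3m_440 and Q92_3m_466. At 18 months it was 10.72, 13.76 and 8.63 in wt_18m_9, wt_18m_12 and wt_18m_17 and 11.74, 13.21 and 12.31 in Q92_18m_11, Q92_18m_25 and Q92_18m_66. Ttr also varied among the remaining 10 mice, from 8.63 in wt_18m_17 to 13.21 in Q92_18m_25. Over all 12 mice its highest and lowest signals were 34.9-fold apart. At 3 months the lowest Q92 mouse lay above the highest wild-type mouse, whereas at 18 months the groups overlapped through wt_18m_12 alone, since the other 2 wild-type mice were below all 3 Q92 mice. All 4 Ttr probe sets placed wt_18m_12 and Q92_3m_439 above the rest, with ranges over the 12 mice of 33.7-fold to 73.4-fold. The brightest one carries the _x_at ending, which Affymetrix gives to probe sets that may also bind other transcripts.

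Klotho, encoded by Kl, is a membrane and shed protein that serves as a coreceptor for FGF23. On its brighter probe set it read 3.70, 3.32 and 3.50 in the wild-type mice at 3 months and 7.09, 3.38 and 4.27 in the Q92 mice at 3 months, in the same order of animals. The 18 month values were 3.65, 6.92 and 3.22 in wild type and 3.69, 5.27 and 3.74 in Q92. Thus 9 mice lay between 3.22 and 4.27, Q92_18m_25 was intermediate, and the lower of the high mice stood 1.65 above it. The second Kl probe set did not show this. It ran from 3.19 to 3.74 over all 12 mice, a 1.47-fold range, and its highest value was in wt_3m_467. It was the 1 exception among the 17 probe sets, since on the other 16 both high mice exceeded all others.

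Sostdc1 encodes a secreted antagonist of BMP and Wnt signals. It read 4.10, 3.65 and 4.03 in wild type and 7.00, 4.26 and 4.38 in Q92 at 3 months, and 4.58, 7.28 and 4.40 in wild type and 4.08, 5.27 and 4.93 in Q92 at 18 months. All 3 wild-type mice at 3 months lay below every other group's mice except Q92_18m_11. F5, which encodes coagulation factor V, read 3.28, 3.31 and 3.24 in wild type and 6.47, 3.40 and 3.56 in Q92 at 3 months. At 18 months F5 read 3.09, 6.22 and 3.14 in wild type and 3.37, 3.87 and 4.01 in Q92. The gap between the second- and third-highest mouse was 2.21 for F5, the widest of the 10 members.

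Among the ion and water transporters, Kcnj13 encodes the inward rectifier potassium channel Kir7.1 of the apical membrane. Its signal was 4.85, 4.22 and 4.49 in wild type and 8.47, 4.46 and 4.77 in Q92 at 3 months, and 4.68, 7.78 and 4.05 in wild type and 4.65, 6.72 and 5.41 in Q92 at 18 months. The 21.4-fold range of Kcnj13 was second only to that of Ttr among the members. Slc4a5, which encodes the sodium bicarbonate cotransporter NBCe2, read 2.80, 2.70 and 2.90 in wild type and 4.83, 2.87 and 2.55 in Q92 at 3 months. At 18 months Slc4a5 read 2.92, 4.71 and 2.70 in wild type and 2.87, 3.22 and 3.19 in Q92. Here the 10 other mice were close together (2.55 to 3.22), near the lower end of the values on the array.

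Aqp1 encodes the water channel aquaporin-1. Its signal was 3.24, 3.37 and 3.85 in wild type and 4.88, 3.28 and 3.42 in Q92 at 3 months, and 3.30, 4.94 and 3.20 in wild type and 3.16, 3.52 and 3.10 in Q92 at 18 months. Its range was the smallest of the members (3.57-fold), and Q92_18m_25 was only 1.17-fold above the median of the 10 lower mice. Clic6, which encodes a member of the chloride intracellular channel family, read 7.18, 6.80 and 7.10 in wild type and 8.68, 7.06 and 7.13 in Q92 at 3 months. At 18 months Clic6 read 7.07, 8.17 and 6.63 in wild type and 6.99, 7.43 and 7.25 in Q92. Its second probe set ran from 6.22 to 7.65 and gave the same 2 mice as highest.

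Folr1 encodes folate receptor alpha, which carries folate across the epithelium into the cerebrospinal fluid. Its signal was 4.47, 4.27 and 4.19 in wild type and 6.97, 3.87 and 4.13 in Q92 at 3 months, and 3.79, 7.01 and 3.99 in wild type and 4.14, 5.15 and 4.36 in Q92 at 18 months. The lower of the high pair lay 1.81 above the third mouse. Otx2, the transcription factor, read 4.38, 3.61 and 3.90 in wild type and 6.01, 3.75 and 4.10 in Q92 at 3 months. At 18 months Otx2 read 3.37, 5.93 and 3.70 in wild type and 4.72 in Q92_18m_25, 4.17 in Q92_18m_66 and 3.70 in Q92_18m_11. The order of the top 3 mice for Otx2 was that of Kl and Kcnj13.

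The spread of the markers between mice of one group was large beside that of other genes. The residual SD, taken from the group means over all 12 mice, was 1.59 for Kcnj13, 1.53 for Ttr, 1.48 for Kl, 1.28 for Folr1, 1.26 for F5 and 1.17 for Sostdc1 on the log2 scale. It was 0.98 for Otx2, 0.84 for Slc4a5, 0.69 for Aqp1 and 0.62 for Clic6. The median gene had 0.146. Ranked from the most variable of 18193 genes, Kcnj13 was at 6, Ttr at 10, Kl at 12, Folr1 at 18, F5 at 19 and Sostdc1 at 21, and the least variable member, Clic6, was at 125. Without wt_18m_12 and Q92_3m_439, the residual SD was 0.83 for Ttr (rank 60), 0.66 for Kcnj13 (rank 114) and 0.60 for Kl (rank 151). The other 7 then lay between 0.17 for Slc4a5 (rank 5884) and 0.40 for Otx2 (rank 497), beside 0.139 for the median gene. Ttr, Kcnj13 and Kl thus kept a wide spread among the 10 other mice, while Slc4a5 and F5 (0.20) came close to the typical gene.

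**Figure D2:**
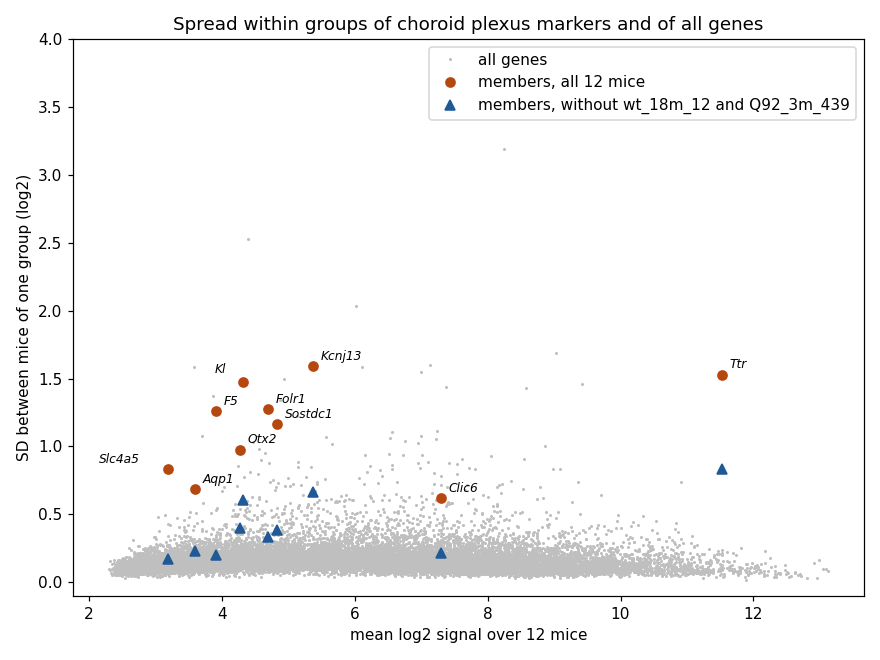
Spread of the choroid plexus markers between mice of one group. Each grey point is 1 of 18193 genes, with its mean log2 signal over 12 mice on the horizontal axis and its residual SD from the group means on the vertical axis. Circles are the 10 members over all mice and triangles the same genes without wt_18m_12 and Q92_3m_439, placed at the mean over all 12 mice. All circles lie above the bulk of the genes (0.62 to 1.59), and the triangles lie lower (0.17 to 0.83). Without both mice, Ttr, Kcnj13, Kl, Otx2, Sostdc1 and Folr1 still lie at or above the 95.4 percentile of all genes. Clic6, Aqp1, F5 and Slc4a5 lie between the 67.7 and 86.4 percentiles.

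Whether Q92 striatum differs from wild type in these markers was asked first at 18 months, the age of the later stage of this model. No member passed the threshold. Ttr was 1.39 higher in Q92 (SE 1.00, 95% interval -0.79 to 3.56, adjusted p = 0.807, limma with Benjamini-Hochberg adjustment), at 12.42 ± 0.74 against 11.04 ± 2.58 (SD, n = 3). Kcnj13 was 0.09 higher (5.59 ± 1.05 against 5.50 ± 1.99), and the other 8 had lower means in Q92, from -0.07 for Clic6 to -0.66 for Sostdc1. Of the 10 members, 0 were called by limma, and 0 had an unadjusted p under 0.05. Over all 45037 probe sets, 24 were called (0.0533%), and 3560 had an unadjusted p under 0.05. The median difference of the members was -0.36, beside -0.00 for all genes. In none of the 10 members were the groups apart, whereas they were in 14.0% of all genes.

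Leaving out both high mice turned the sign of 8 of the 10 differences at 18 months, and all 10 members then had higher means in Q92 mice, with a median of 0.65. The wild-type 18 month group then consisted of 2 mice. Ttr was 2.75 higher (SE 0.59, 95% interval 1.44 to 4.05), Kcnj13 1.23, Kl 0.80, Folr1 and Otx2 0.66 each, F5 0.64, Clic6 0.37, Slc4a5 0.29, Sostdc1 0.27 and Aqp1 0.01. The smallest adjusted p was 0.288 (Ttr), so that 0 of 10 members were called by limma, and 5 had an unadjusted p under 0.05. Those 5 have 95% intervals that lie above 0, namely Ttr, Folr1, Kcnj13, Otx2 and F5. Over all probe sets, 11 were called without both mice and 3491 had an unadjusted p under 0.05. The choice of these 2 mice was made after seeing the members' values. At this age the mouse left out, wt_18m_12, was the highest wild-type mouse for every member, so each difference could only rise. Q92_18m_25, third-highest in 8 of 10 members, stayed in the Q92 group. The intervals and unadjusted p are therefore descriptions. In the comparisons below too, this choice set the direction in which each member's difference moved.

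At 3 months all 10 members had higher means in Q92 mice, and none passed the threshold. The differences ran from 0.38 for Aqp1 to 1.72 for Ttr (SE 1.00, 95% interval -0.45 to 3.90, limma adjusted p = 1.00), with a median of 0.94 beside -0.02 for all genes. Kl was 1.41 higher (4.91 ± 1.94 against 3.50 ± 0.19), Kcnj13 1.38 (5.90 ± 2.23 against 4.52 ± 0.32), Sostdc1 1.29 (5.21 ± 1.55 against 3.93 ± 0.24) and F5 1.20 (4.48 ± 1.73 against 3.28 ± 0.03). By limma 0 of 10 members were called, and 0 had an unadjusted p under 0.05, while 5 of all probe sets were called (0.0111%) and 1191 had an unadjusted p under 0.05. The groups did not overlap for 3 members, Ttr, Sostdc1 and F5, and for 6.64% of all genes. Each Ttr probe set kept the groups apart. On the second probe sets of Sostdc1 (difference 0.54) and F5 (0.86) the groups overlapped.

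Without Q92_3m_439 the 3 month Q92 group held 2 mice and the differences shrank. With both high mice left out, 6 of 10 members had higher means in Q92, the median was 0.08, and the values lay between -0.31 for Folr1 and 0.97 for Ttr (95% interval of Ttr -0.34 to 2.27). The smallest adjusted p was 0.993, 0 members were called by limma, and 0 had an unadjusted p under 0.05. Over all 45037 probe sets, 1 was called and 1813 had an unadjusted p under 0.05. The 3 members whose groups stood apart kept the smaller differences of 0.97 (Ttr), 0.39 (Sostdc1) and 0.20 (F5).

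**Figure D3:**
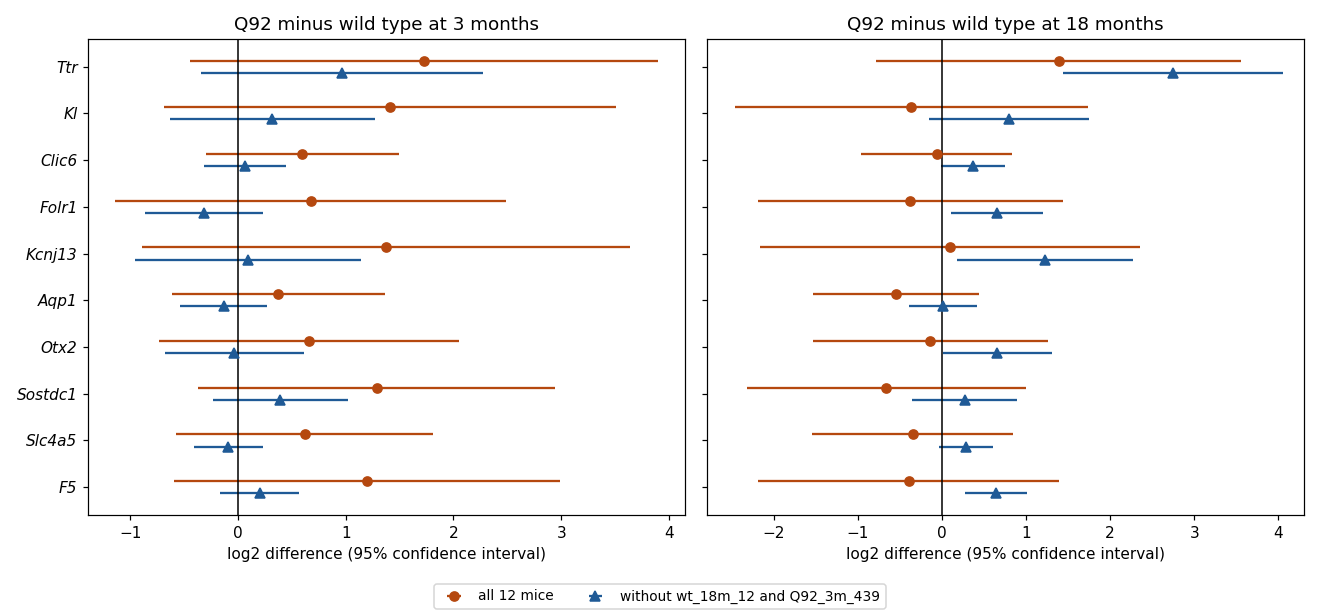
Difference between Q92 and wild-type mice for each marker at 3 and at 18 months. The horizontal axis is the log2 difference, and bars are 95% confidence intervals from limma, with all 12 mice (circles) and without wt_18m_12 and Q92_3m_439 (triangles). At 18 months 8 of 10 circles lie below 0 and all 10 triangles lie above it, and at 3 months the triangles lie nearer to 0 than the circles for all 10 genes.

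The change of the genotype difference from 3 to 18 months was below 0 for all 10 members, from -0.34 for Ttr to -1.95 for Sostdc1 (SE 1.08, 95% interval -4.30 to 0.40), with a median of -1.01 beside 0.02 for all genes. None was called by limma (adjusted p of 0.950 or more), and 0 had an unadjusted p under 0.05. Over all probe sets 0 were called (0%), with 2335 at an unadjusted p under 0.05. Both high mice push this contrast the same way, one raising the 3 month Q92 mean and the other the 18 month wild-type mean. Without them 9 of 10 members had a change above 0 (median 0.46), with Ttr at 1.78 (95% interval -0.07 to 3.63) and Sostdc1 at -0.12 as the exception. Again 0 were called by limma (smallest adjusted p 0.728), with 1, Folr1 (0.97), at an unadjusted p under 0.05, beside 3072 of all 45037 probe sets.

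With age, wild-type mice had higher means at 18 than at 3 months in all 10 members, from 0.26 for Clic6 to 1.50 for Sostdc1 (SE 0.77, 95% interval -0.17 to 3.16, limma adjusted p = 0.520), with a median of 0.63 beside -0.01 for all genes. Kl was 1.09 higher and Kcnj13 0.98 higher. Of the 10 members 0 were called by limma and 0 had an unadjusted p under 0.05, against 23 probe sets called of all tested (0.0511%) and 4757 at an unadjusted p under 0.05. Sostdc1 was the 1 member whose groups did not overlap, beside 18.6% of all genes. On the second Sostdc1 probe set, which was 0.76 higher at 18 months, the groups overlapped. Without both high mice only Sostdc1 (0.56) and Slc4a5 (0.01) remained higher at 18 months, the median was -0.17, and Ttr was at -0.78. Then 0 were called by limma (smallest adjusted p 0.468) and 0 had an unadjusted p under 0.05. Of all probe sets, 1 was called and 5199 had an unadjusted p under 0.05.

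In Q92 mice 9 of 10 members had lower means at 18 than at 3 months, from -0.31 for Kcnj13 to -0.73 for F5, and Ttr was 0.24 higher. The median was -0.43 beside 0.01 for all genes. By limma 0 of 10 were called (smallest adjusted p 0.713) and 0 had an unadjusted p under 0.05, whereas 93 of all probe sets were called (0.206%) and 4763 had an unadjusted p under 0.05. The groups overlapped for all 10 members, and were apart for 17.5% of all genes. Without both high mice 9 of 10 had higher means at 18 months (median 0.40, Ttr 1.00, Kcnj13 0.98), and Aqp1 was at -0.09. None was called by limma (smallest adjusted p 0.523), and 2, Folr1 and Slc4a5, had an unadjusted p under 0.05, beside 3574 of all 45037 probe sets. Comparisons that share a group share its mice, so their values are given side by side and not as separate evidence.

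Beyond the 10 members, 32 further genes of the choroid plexus epithelium were listed, and 29 had a probe set of their own (Enpp2, Prlr and Mfrp did not). In 23 of these 29, or 79.3%, wt_18m_12 and Q92_3m_439 exceeded the other 10 mice, compared with 2.24% of all genes (407 of 18193). The exceptions were Car12, Cox8b, Vamp8, Lmx1a, Slco1a5 and Wfikkn2. The list was chosen with earlier results of these data known, so its share is a description. The widest range was that of Ecrg4, which encodes the secreted peptide precursor augurin, at 9.05 in wt_18m_12, 8.99 in Q92_3m_439, 6.67 in Q92_18m_25 and 5.08 to 6.08 in the remaining 9. Kcne2, an auxiliary subunit of potassium channels, was at 6.08, 6.69 and 4.59 in these 3 mice and at 2.99 to 3.53 in the rest. Calml4, a calmodulin-like gene, was at 6.91, 7.25 and 5.30, with the rest between 3.56 and 5.28. Lbp, which encodes lipopolysaccharide-binding protein, was at 7.71, 7.03 and 5.84 (rest 4.72 to 5.74), the collagen gene Col8a1 at 5.88, 6.19 and 5.03 (rest 3.98 to 4.78), and the sulfate transporter gene Slc13a4 at 6.40, 6.54 and 5.59 (rest 4.49 to 5.17).

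By limma, 0 of the 29 genes were called in each comparison, and 1 or 2 of 29 had an unadjusted p under 0.05 in each, beside 413 to 2265 of all 18193 genes. At 18 months 8 of 29 had a higher mean in Q92 (median -0.14) and 26 of 29 at 3 months (median 0.22), and the change with age was above 0 in 4 of 29 (median -0.43). Means were higher at 18 than at 3 months for 23 of 29 in wild type (median 0.30) and for 4 of 29 in Q92 (median -0.20). The smallest adjusted p by limma was 0.0607, for Car12, a carbonic anhydrase gene, at 18 against 3 months in Q92. Car12 was among the 6 genes that did not put both high mice on top. Without both high mice, 22 of 29 had a higher mean in Q92 at 18 months (median 0.15) and 8 of 29 at 3 months (median -0.07), and the change was above 0 in 25 of 29 (median 0.22). By age, 9 of 29 were then higher at 18 months in wild type (median -0.12) and 23 of 29 in Q92 (median 0.09), again with 0 called by limma. Without both mice, 6 of 29 had an unadjusted p under 0.05 for genotype at 18 months, 2 at 3 months, 5 for the change, 3 for age in wild type and 5 for age in Q92. Over all 18193 genes these counts were 1315, 670, 1201, 2042 and 1619, in the same order.

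**Figure D4:**
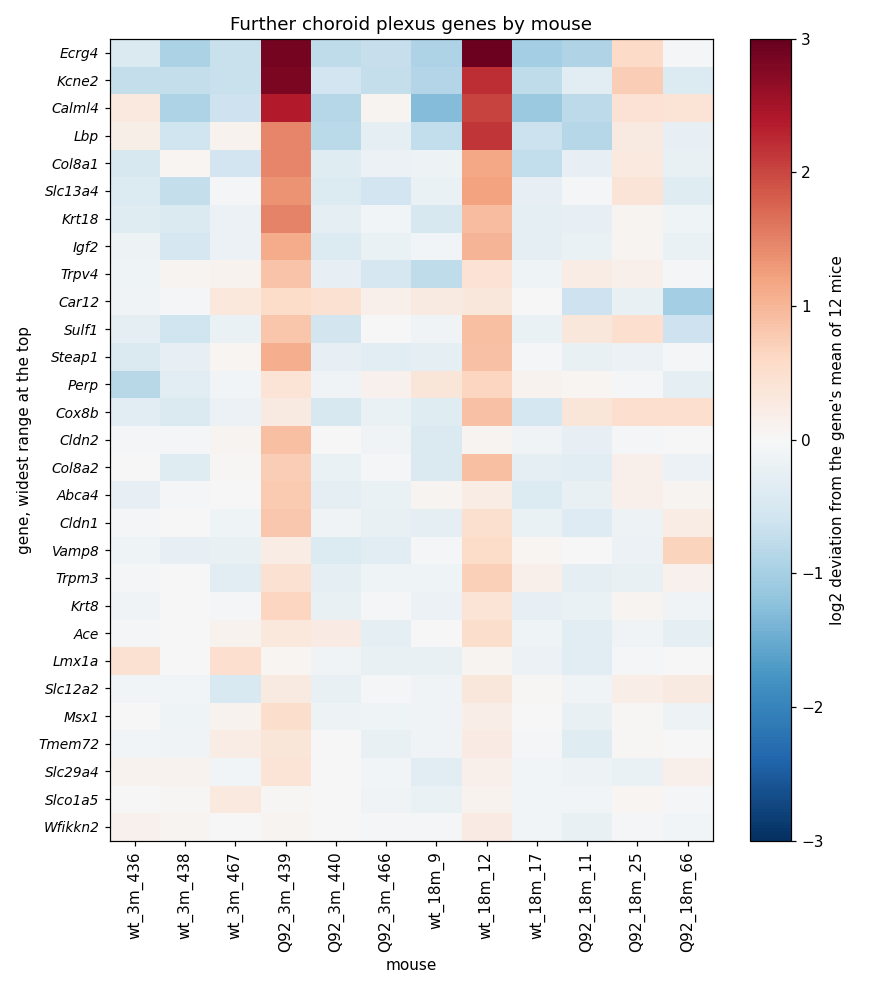
Further choroid plexus genes by mouse. Each row is 1 of 29 genes, ordered by range with the widest at the top, each column is 1 of 12 mice, and the colour is the log2 deviation from the gene's mean over all mice. The columns of Q92_3m_439 and wt_18m_12 are red over most rows, strongest for Ecrg4, Kcne2, Calml4 and Lbp, and the column of Q92_18m_25 is pale red for several of the same genes.

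Genes with the most similar pattern over the 12 mice were sought among the 18183 non-member genes, by Pearson correlation with the mean of the centred members. Ecrg4 (r = 0.992), Kcne2 (0.981), Igf2 (0.965), Krt18 (0.958), Slc4a2 (0.956), Col9a3 (0.955), Col8a1 (0.953), Calml4 (0.947), Igfbp2 (0.945) and Krt8 (0.943) came first, and 22 genes exceeded 0.9. Of these 10, 7 are on the further list and Igfbp2 is on that of the meninges and stroma. Both lists were chosen with earlier results of these data known. Slc4a2, which encodes the anion exchanger AE2, and Col9a3, a collagen chain, are on neither. Spearman's rho was 0.902 for Ecrg4, 0.916 for Calml4 and 0.629 to 0.811 for the other 8. These arrays share the tissue and the platform and fall into 2 high mice and 10 others, so the coefficients are given as a description. Without the 2 mice farthest from the median of the member mean, which are the high pair, r was 0.944 for Ecrg4, 0.868 for Kcne2, 0.788 for Calml4 and 0.569 to 0.763 for the other 7.

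Within the member set the same calculation gave r with the mean of the members of 0.857 for Ttr, the lowest, 0.899 for Aqp1 and 0.966 to 0.988 for the remaining 8. Since each member is part of that mean, these values are high by construction. Without the high pair, Kcnj13 had the highest value (0.981), followed by Kl (0.919), Ttr (0.888) and Clic6 (0.878), and Aqp1 had 0.114.

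Markers of neighbouring cell types were read in the same mice, as the median deviation of each list from its mean over the 12 mice. The choroid members stood at 2.27 in wt_18m_12, 2.17 in Q92_3m_439, 0.44 in Q92_18m_25 and between -0.68 and -0.02 in the other 9. The further list stood at 0.54 in wt_18m_12 and 0.73 in Q92_3m_439. Ependyma, the ciliated lining of the ventricle (12 genes), stood at 0.70 in wt_18m_12, with all 12 genes above their mean, and at 0.32 in Q92_3m_439. It also stood at 0.30 in wt_3m_436, with 12 of 12 genes above their mean, where the choroid members were at -0.46. In 5 of 12 ependymal genes (41.7%) both high mice exceeded all others. The widest ranges in that list were those of Dynlrb2 (4.48 to 6.59) and Ccdc153 (5.27 to 7.24), both genes of motile cilia, and both were highest in wt_18m_12.

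By group, the ependymal median ranged from -0.28 to 0.30 in wild type at 3 months, from -0.36 to 0.32 in Q92 at 3 months, from -0.32 to 0.70 in wild type at 18 months and from -0.27 to 0.12 in Q92 at 18 months. Meningeal and stromal genes (12) stood at 0.13 in wt_18m_12 and 0.35 in Q92_3m_439, against -0.21 to 0.07 in the others, and both mice were on top in 2 of 12. In that list Igfbp2 was at 7.68 and 8.13 in the high pair and at 5.24 to 6.25 in the rest, while Dcn, the decorin gene, was highest in Q92_18m_66 (7.40). Endothelial genes (9) stood at 0.14 and 0.08 in the high pair, with the others between -0.15 and 0.11, and in 0 of 9 were both mice on top. Plvap, a gene of fenestrated endothelium, was highest in wt_18m_12 (7.22), and was 6.25 in Q92_3m_439. Erythrocyte genes (2 measured) stood at 0.39 and 0.16, against -0.30 to 0.48 in the others. RMA values have no zero, so absence of a marker cannot be read from them. The part of these cell types in the members' differences was not tested.

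**Figure D5:**
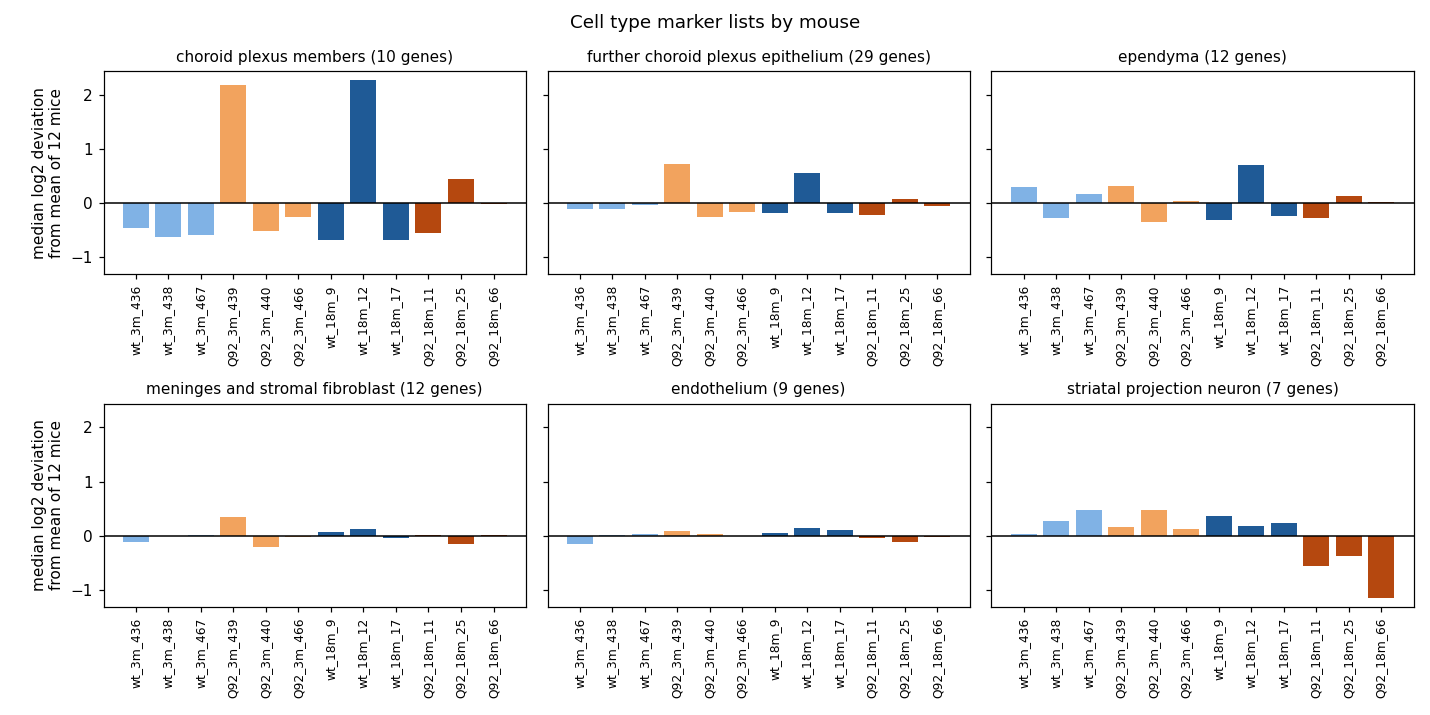
Marker lists by mouse. Bars give the median log2 deviation of the genes of a list from their mean over the 12 mice, 1 bar per mouse, on 1 vertical scale for all panels. The choroid members reach 2.27 and 2.17 in wt_18m_12 and Q92_3m_439, the ependymal list has 0.70 and 0.32 there and 0.30 in wt_3m_436, and the striatal projection neuron list is below 0 in the 3 Q92 mice at 18 months.

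Neuronal markers of the dissected and adjoining tissue varied between mice as well. The striatal projection neuron list (7 genes) stood at 0.18 in wt_18m_12 and 0.17 in Q92_3m_439, within the range of the other 7 wild-type and 3 month mice (0.03 to 0.47). It was -0.56, -0.38 and -1.15 in the Q92 mice at 18 months. The widest range in it was that of Drd2, the dopamine D2 receptor gene (7.27 to 9.22). Rgs9, a regulator of G protein signalling (9.01 to 10.91), came next. Both were above the median signal of the array (4.96 to 5.01) in all 12 mice. Prkcd, of the thalamic list, was as well (5.73 to 9.65), so this does not identify the tissue. Cortical excitatory neuron genes (7) were at 1.31 in Q92_18m_25, where the choroid members were at 0.44, at 0.85 in Q92_18m_11, where the choroid members were at -0.55, and at -0.02 and -0.30 in the high pair. Thalamic neuron genes (7) were at 0.30 and 0.28 in the high pair, 0.54 in wt_18m_17 and 0.87 in Q92_18m_66. Slc17a6, a vesicular glutamate transporter gene of the thalamic list, ran from 4.77 to 9.09, and Neurod6 of the cortical list from 3.01 to 6.89. The part of these neuronal lists in the members' differences was not tested.

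Facts of the whole series that touch these values are few. Pairwise correlations between arrays over all probe sets were 0.983 to 0.995, and the mean correlations of the high pair (both 0.990) lay within those of the others (0.987 to 0.992). Htt, the targeted gene, read 7.76 ± 0.14 in wild type and 8.06 ± 0.03 in Q92 at 3 months, and 7.75 ± 0.06 and 7.85 ± 0.14 at 18 months (limma adjusted p = 1.00 and 0.883), which does not check the repeat insertion. Signals of Aqp1, Slc4a5 and F5 averaged at or below the 40th percentile of all probe sets (4.27), so that 7 of 10 members pass a filter set there. Among those that pass, Kl, Otx2 and Folr1 had medians below that value in the mice other than the high pair (3.67, 3.83 and 4.16).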

How the data were processed

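Total RNA of 12 striata, extracted with TRIzol and RNeasy columns, was labelled with biotin and hybridised to Affymetrix mouse genome arrays, per the labels. The authors deposited a log2 signal for each probe set. RMA and affy are named in the submitters' processing notes, without versions. RMA makes the arrays' distributions alike, so differences are relative to the other genes of an array. Joint normalisation of the 12 arrays is not stated in the labels used here.

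The values were used as deposited. Of 45101 probe sets, 64 controls were left out. The platform annotation pairs 34945 with 1 gene, 932 with several and 9160 with none, and the brightest probe set by mean over all arrays represents each of 18193 genes. Group means were fitted to the 12 arrays in a single limma model, with limma 3.58.1 in R 4.3.3 (8 residual and 4.50 prior degrees of freedom). P-values were adjusted by Benjamini-Hochberg over 45037 probe sets, with a threshold of 0.05, and the model was tested on simulated data. The median gene's SE was 0.122 on the log2 scale.

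The members and lists were chosen with earlier results of these data known, and no p is given for a list. The lists cover further choroid plexus epithelium, ependyma, meninges and stroma, endothelium, erythrocytes, and cortical, thalamic and striatal neurons. Named were all members, Htt, the 6 genes of the further list with the widest range and any that passed, up to 2 of each other list, and the 10 genes most like the member mean. Other genes are named as exceptions, or were named after their values were seen. Alternatives covered normalisation, low signals, the variance model, array weights, sex, the arrays fitted, probe sets per gene, single mice and, added later, age in days as a block. Motifs were searched in RefSeq promoters.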

Additional observations from a re-analysis of the deposited data

How the results depend on the processing

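Every count of members past the threshold was 0 under each alternative tried. These changed the scaling (quantiles, or equal medians), dropped dim probe sets below the 40th percentile, used a robust trended variance, weighted the arrays, added sex to the model, fitted the compared groups alone, averaged a gene's probe sets, or omitted 1 mouse at a time. Of the member differences under these, 689 kept their direction and 46 turned it, none of them called. With array weights, the difference at 18 months was 0.0894 for Clic6, 0.14 for Kl and 0.0896 for Otx2, the change in Q92 with age was 0.0760 for Folr1 and 0.34 for Kcnj13, and Ttr stood at -0.0689 with age in wild type and at 0.70 for the change of the genotype difference. The cause was not tested. For 18 against 3 months in wild type, the lowest and highest values with 1 mouse left out were -0.24 and 0.63 for Aqp1, -0.17 and 0.59 for Clic6, -0.17 and 1.40 for F5, -0.42 and 1.19 for Folr1, -0.16 and 1.71 for Kcnj13, -0.0700 and 1.78 for Kl, -0.43 and 0.85 for Otx2, -0.78 and 1.78 for Ttr. For genotype at 18 months, the lowest and highest values with 1 mouse left out were -0.86 and 0.0137 for Aqp1, -0.39 and 0.37 for Clic6, -0.93 and 0.64 for F5, -0.95 and 0.66 for Folr1, -0.64 and 1.23 for Kcnj13, -1.05 and 0.80 for Kl, -0.62 and 0.66 for Otx2, -0.72 and 0.29 for Slc4a5, -1.17 and 0.27 for Sostdc1. For genotype at 3 months, the lowest and highest values with 1 mouse left out were -0.13 and 0.66 for Aqp1, -0.31 and 1.24 for Folr1, -0.0341 and 1.09 for Otx2, -0.0908 and 1.05 for Slc4a5. For 18 against 3 months in Q92, the lowest and highest values with 1 mouse left out were -0.68 and 0.13 for Clic6, -1.27 and 0.27 for F5, -0.998 and 0.55 for Folr1, -1.03 and 0.98 for Kcnj13, -1.45 and 0.41 for Kl, -0.86 and 0.27 for Otx2, -0.76 and 0.38 for Slc4a5, -0.93 and 0.44 for Sostdc1, -0.32 and 1.00 for Ttr. For the change with age, the lowest and highest values with 1 mouse left out were -1.54 and 1.02 for Ttr. Without both wt_18m_12 and Q92_3m_439, an alternative added after the data were seen, the median change of the genotype difference was 0.46 in place of -1.01, and the median residual SD of the members was 0.36 in place of 1.21. In the same setting the probe sets called over the whole array fell from 24 to 11 for genotype at 18 months, from 5 to 1 at 3 months, from 23 to 1 for age in wild type and from 93 to 8 for age in Q92, with fewer mice in the fit. No paired analysis was possible because each animal number occurs in 1 group only, but some mice of both genotypes shared an age in days. With that age as a block, also added after the data were seen, limma called 0 of 10 members for genotype at either age or for its change. None had an unadjusted p under 0.05. Over all probe sets it called 4 at 18 months, 2 at 3 months and 1 for the change. In the same order, 2704, 930 and 2103 had an unadjusted p under 0.05. The members' median was then 0.94 at 3 months, -1.19 at 18 months (in place of -0.36, an estimate set by wt_18m_12, wt_18m_17 and Q92_18m_11, all of 596 days) and -1.91 for the change. The number of arrays limits the precision, and a group left with 2 mice borrows its spread from the other groups.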

Other observations

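Other genes with a large spread between mice of one group included several that are not of the choroid plexus. Xist, Eif2s3y, Cap1, Mid1 and Kdm5d were at ranks 1, 2, 4, 5 and 7, and Prune2 and Rpgrip1 at ranks 13 and 15. Among the 18193 genes, Shox2, a homeobox gene of the thalamus and habenula, was at rank 3 with a residual SD of 2.04, Slc17a6 at rank 9 with 1.54, Pmch, the precursor gene of melanin-concentrating hormone, at rank 11 with 1.50 and Prkcd at rank 14 with 1.44. Slc17a6 was highest in Q92_18m_66 (9.09) and lowest in wt_3m_467 (4.77), and it was 8.24 in wt_18m_12 and 7.75 in Q92_3m_439. Prkcd was 9.65 in Q92_18m_66, 8.39 in wt_18m_12 and 7.91 in Q92_3m_439. Of the further choroid plexus genes, Ecrg4 was at rank 8, Kcne2 at rank 16, Calml4 at rank 17 and Lbp at rank 26. Shox2, Pmch, Xist, Eif2s3y, Cap1, Mid1, Kdm5d, Prune2 and Rpgrip1 were named after their values were seen.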
